A study of Rattus norvegicus with 30 samples.

Results

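The enzymes that move one-carbon units on folate, and those that make serine, were followed in the rat heart in females and males at 3 ages. The set holds 8 genes chosen by symbol. Mthfd2, Mthfd1l and Shmt2 act in mitochondria, Mthfd1 and Shmt1 in the cytosol, and Phgdh, Psat1 and Psph make serine. All rows of the deposited expression tables that carry one of these symbols were taken, which gave 8 rows in each table, of 27408 rows at 8 weeks, 27383 at 21 weeks and 26553 at 78 weeks. They belong to 7 of the 8 genes, with 2 rows for Mthfd2, and 7 is also the number of members that passed the filter on low values with which the tables were made. Psat1 was read by 1 probe that was not well above background on any of the 30 arrays, so it has no level here. Mthfd2 was put in the set because of its sex difference in these data, and that difference is therefore described below with no test.

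Whole hearts came from 30 untreated rats of the inbred Fischer strain F344. There were 5 females and 5 males at each of 8 weeks (young), 21 weeks (adult) and 78 weeks (old), and all were kept on the same diet, fed freely. Total RNA of each heart was labeled with the dye Cy3 and hybridized to 1 Agilent rat array. A normalized value relates the intensity of a gene's spots to the upper quartile (75th percentile) of that array and so has no unit, and a difference on the log2 scale is always female minus male or later minus earlier age.

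Folate carries single carbon atoms between reactions. In mitochondria, Shmt2 takes a carbon from serine, Mthfd2 oxidizes the loaded folate and Mthfd1l releases the carbon as formate, which leaves for the cytosol. There Mthfd1 loads formate back onto folate for the synthesis of purines and thymidylate, and Shmt1 interconverts serine and glycine. Serine itself can be built from a glycolytic intermediate by Phgdh, Psat1 and Psph in that order. Mthfd2 is known as an enzyme of embryonic and dividing cells that is low in most adult tissues.

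The probes behind these names matter to what follows, and 3 of them are shown because the reading of Mthfd2 and Shmt1 turns on them. The first row of Mthfd2 averages 2 probes that the array lists as LOC680308, a gene ID that is Mthfd2 in RefSeq (GRCr8, chromosome 4, 117368833 to 117380350). One of them spans 668 bases of the rn3 genome (chromosome 4, 117767099 to 117767766), so its 60 bases cross an intron and lie in spliced exons. The second row of Mthfd2 is a probe that the array lists as RGD1564040_predicted and places on another chromosome (rn3, chromosome 5, 122699909 to 122699968), although its accessions include the Mthfd2 transcript. The row of Shmt1 is 1 of 3 Shmt1 probes, and it spans 328 bases (rn3, chromosome 10, 46950370 to 46950697). All are written 5′ to 3′ as the array files give them, in lower case throughout because no base is singled out.
Mthfd2, row 1, probe across an intron: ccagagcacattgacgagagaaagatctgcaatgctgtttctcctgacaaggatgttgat
Mthfd2, row 2: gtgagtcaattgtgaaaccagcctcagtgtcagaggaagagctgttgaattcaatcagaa
Shmt1, named row: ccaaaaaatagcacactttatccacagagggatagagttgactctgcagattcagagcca

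The arrays called 15943 to 22634 of 41012 probes well above background, and the weakest were among the 21-week males. Females lay at array positions 2 and 4 and males at 1 and 3 on all 8 slides, so sex and position cannot be told apart. The tissue label was borne out by the 6 cardiomyocyte markers Myh6, Tnnt2, Tnni3, Actc1, Ryr2 and Myl2, each above background on all 30 arrays. At 78 weeks the array labeled female replicate 2 showed Ddx3y and Eif2s3y, which are Y-linked, at the male level, and the array labeled male replicate 3 showed them at the female level. Both stay in the groups of their labels, and results at that age are repeated without them. In whole tissue, fewer cells of a type and less RNA per cell cannot be told apart.

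Mthfd2 was lower in female than in male hearts at each of the 3 ages. In the first row the normalized values at 8 weeks were 0.147, 0.0809, 0.117, 0.102 and 0.112 in females and 0.160, 0.152, 0.192, 0.146 and 0.156 in males, so that only the female at 0.147 reached the range of the males. At 21 weeks they were 0.0963, 0.128, 0.114, 0.125 and 0.141 in females and 0.157, 0.182, 0.162, 0.179 and 0.111 in males, where 1 low male overlapped 4 of the females. The overlap at that age thus came from a single male heart. At 78 weeks they were 0.129, 0.148, 0.125, 0.120 and 0.134 in females and 0.220, 0.215, 0.142, 0.181 and 0.141 in males. The 0.148 belongs to the array labeled female replicate 2 and the 0.142 to the array labeled male replicate 3. With both left out the 4 remaining females ended at 0.134 and the 4 remaining males began at 0.141. Mthfd2 was picked for this contrast, and how often other rows separate between 4 and 4 rats was not counted.

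The difference of Mthfd2 was -0.55 log2 (SE 0.15, n = 5 per sex) at 8 weeks, -0.38 (SE 0.17) at 21 weeks and -0.43 (SE 0.15) at 78 weeks. These correspond to levels that were 1.46-, 1.30- and 1.35-fold higher in males. Without the 2 arrays at odds with their labels the 78-week difference was -0.54 on values rebuilt from the scanner files. Mthfd1l, Shmt2, Mthfd1, Shmt1 and Psph were then at -0.11, 0.09, 0.17, 0.17 and -0.13, with 0 members past an adjusted p of 0.05 in limma, where 0.0266% of all features were (smallest adjusted p = 0.885).

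**Figure D1:**
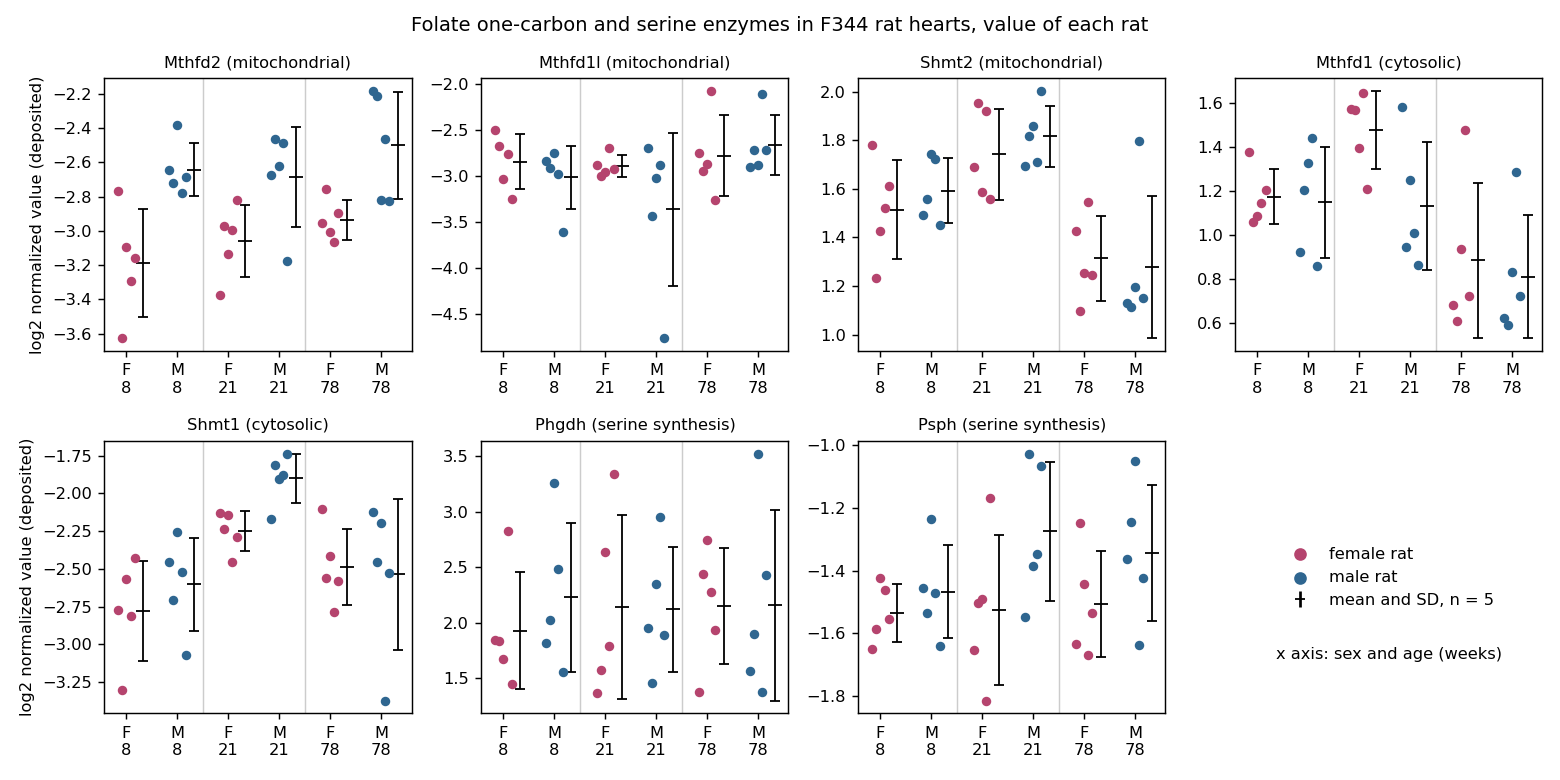
Log2 normalized value of each rat for the 7 enzymes with a row, by sex (F, M) and age in weeks on the x axis, with the mean and SD of the 5 rats in black; each age was scaled in a table of its own. Mthfd2 lay lower in females at each age, while Phgdh spread over more than 1 log2 unit within each group.

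The 3 Mthfd2 probes were then read one at a time on the rebuilt values. The probe across the intron gave differences of -0.47, -0.44 and -0.53 at 8, 21 and 78 weeks and was well above background on 28 of 30 arrays. The other probe of the first row gave -0.59, -0.28 and -0.31 and was above background on all 30. The probe of the second row, above background on 19 arrays, gave -0.51, -0.51 and -0.23. Mthfd2 was picked for its pattern on these same arrays, so the values of all 3 probes describe that pattern and add nothing independent to it.

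Mthfd2 was a dim gene on these arrays. Its 2 probes in the first row had median raw signals of 50 and 59 over local backgrounds of 32 and 29 intensity units. The size of its sex difference depended on how this background was treated. With the normexp background correction, which added an offset of 50 intensity units, it was -0.11 at 8, -0.30 at 21 and 0.02 at 78 weeks. An offset that large shrinks log2 differences of signals this low. The raw median signal with no subtraction gave -0.19, -0.26 and -0.17. Within slides, 8 of 9 slide and age combinations gave a negative difference and the third slide of the 21-week arrays, with 1 rat of each sex, gave 0.33. These are parts of the same values for which Mthfd2 was picked, so their signs add no support. The second slide of the 78-week arrays held both arrays at odds with their sex labels.

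**Figure D2:**
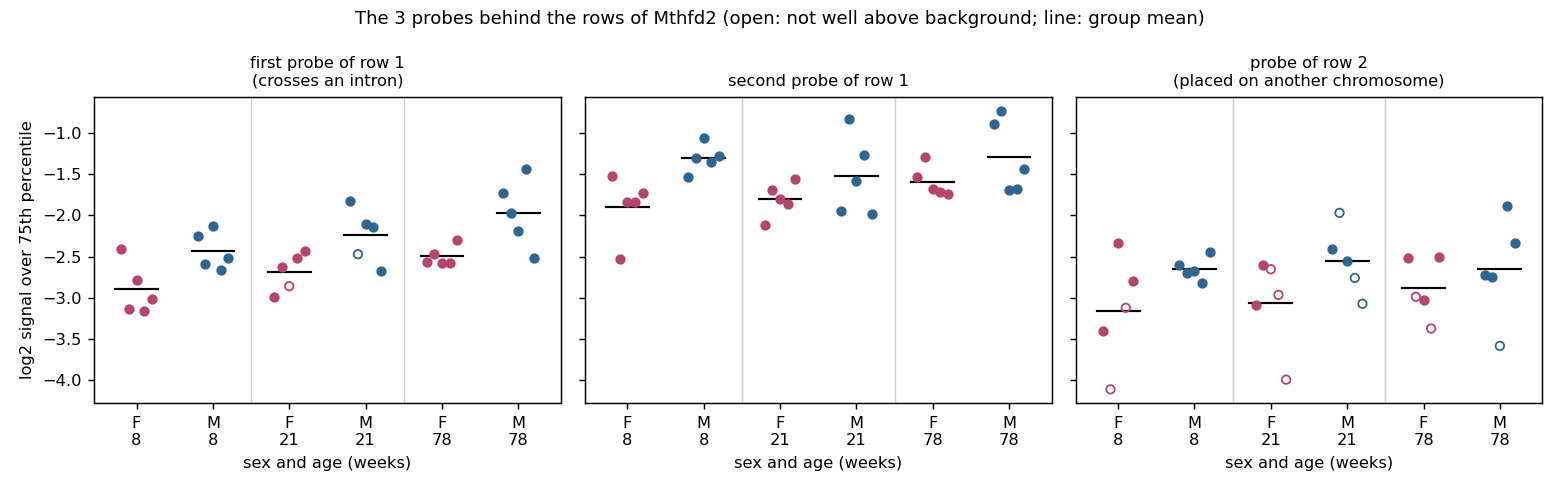
Log2 scaled signal (y axis) for each Mthfd2 probe by sex and age in weeks, with 1 point per rat and a line at the group mean; open points were not well above background. Male means lie above female means for each probe and age, and the second row has the most open points.

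Markers of dividing cells moved with sex as well, which is given here because Mthfd2 is an enzyme of such cells. Of the 6 markers listed 5 were measured, and at 8 weeks Ccnb1 and Cdk1, a cyclin and the kinase it activates, were lower in females (limma adjusted p = 0.0317 and adjusted p = 0.0385), where 0.102% of all rows were called. The summed scaled signal of the 5 markers was 2.105 to 2.69 in females and 3.52 to 4.89 in males at 8 weeks. It was 1.48 to 1.88 in females and 1.87 to 2.98 in males at 21 weeks, and 0.917 to 1.71 and 1.21 to 1.73 at 78 weeks. Over the deviations of the 30 arrays from their group means, Pearson's r between Mthfd2 and the 5 markers ran from -0.0065 to 0.25. Within groups of 5 rats, r between Mthfd2 and Cdk1 was 0.71, 0.49 and 0.38 in females and 0.81, -0.52 and -0.12 in males of the 3 ages. Of 5 fibroblast markers 0 were called by sex at 8 weeks (median -0.03), and their summed signal, at 335.6 to 390.3 in females and 397.8 to 455.5 in males, was apart through the collagens Col1a1 and Col3a1, while Dcn, Pdgfra and Postn had nearly equal means. Over the 5 fibroblast markers the median difference was 0.08 at 21 and -0.30 at 78 weeks, with 0 called. Once female replicate 2 and male replicate 3 were dropped at 78 weeks, the differences ran from -0.54 (Pdgfra) to -0.20 (Col1a1). For the dividing-cell markers they then ran from -0.48 (Birc5) to -0.05 (Cdk1), and no marker of either list passed in limma. On the same deviations of 30 arrays, r with Mthfd2 was 0.19 (Dcn) to 0.46 (Postn) for the fibroblast markers. The part of dividing cells and of collagen-making cells in the Mthfd2 difference was not tested.

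The other mitochondrial enzymes did not share the pattern of Mthfd2. Mthfd1l, the formate-releasing enzyme, had 0.105 to 0.177 in females and 0.0823 to 0.149 in males at 8 weeks, a difference of 0.17 (SE 0.19) in the direction of females. At 21 weeks it was 0.125 to 0.154 in females and 0.0368 to 0.154 in males, with only 3 of 5 male arrays well above background. In old rats the values were 0.104 to 0.238 and 0.134 to 0.233, a difference of -0.12 (SE 0.23). Shmt2, which feeds the pathway from serine, was nearly equal in the sexes. It ran from 2.35 to 3.43 in females and 2.73 to 3.35 in males at 8 weeks, from 2.94 to 3.87 and 3.24 to 4.01 at 21 weeks, and from 2.14 to 2.92 and 2.16 to 3.48 at 78 weeks, with differences of -0.08, -0.08 and 0.04 (SE 0.11, 0.13 and 0.15).

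Among the cytosolic enzymes, the rows of Shmt1 and Mthfd1 differed most at 21 weeks. Shmt1 had 0.228, 0.212, 0.226, 0.183 and 0.205 in adult females and 0.222, 0.285, 0.267, 0.272 and 0.3001 in adult males. The 4 upper males lay above every female, and the difference was -0.35 (SE 0.13), 1.27-fold higher in males, with a two-sided exact permutation p = 0.0238. The limma adjusted p was 0.280. At 8 weeks the difference was -0.18 (SE 0.19) and at 78 weeks 0.05 (SE 0.23), with overlapping values of 0.101 to 0.185 and 0.119 to 0.209, and of 0.145 to 0.233 and 0.0963 to 0.230.

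A second Shmt1 probe, which the tables list under its probe name, read differently. It was well above background on 17 of 30 arrays and gave 0.00, 0.16 and 0.48 (SE 0.24, 0.24 and 0.13) at the 3 ages. In old rats it had 0.0801, 0.0726, 0.0835, 0.0667 and 0.0875 in females and 0.0470, 0.0587, 0.0685, 0.0545 and 0.0514 in males, where it was above background in 5 females and 1 male. The 78-week difference was 0.60 once the 2 arrays with the other sex's Y-linked levels had been dropped. This probe was looked at after its values were known and was at background in most old males, so its differences are a description with no test. The third Shmt1 probe was not above background on any array. At 21 weeks the 2 readable probes thus gave opposite signs, but the 0.16 of the second was smaller than its SE of 0.24. That probe was above background in 2 of 5 males of that age. Which of the 2 follows the transcript was not tested.

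Mthfd1, the cytosolic enzyme that takes up formate, showed the opposite direction in adult rats. Its values at 21 weeks were 2.98, 2.96, 2.63, 3.13 and 2.31 in females and 3.00, 1.93, 2.38, 2.01 and 1.82 in males. Apart from 1 male at 3.00 the males lay at or below 2.38. The difference was 0.35 (SE 0.16), 1.27-fold higher in females, with a two-sided exact permutation p = 0.0714 and a limma adjusted p = 0.324. On all 3 slides of that age it was positive, at 0.33, 0.41 and 0.32. The median over all rows at 21 weeks was -0.14, so Mthfd1 stood against, and Shmt1 with, the general shift of that table. Male replicates 2, 4 and 5 were the weakest arrays of that age, with 15943, 18160 and 17764 probes well above background. On rebuilt values they had the lowest Mthfd1 of the 5 males (3.38, 3.47 and 3.29) and the highest Shmt1 (0.500, 0.468 and 0.541). The part of array brightness in both differences was not tested. At 8 and 78 weeks Mthfd1 differed by 0.02 (SE 0.12) and 0.07 (SE 0.19).

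Of the serine enzymes, Psph, which removes the phosphate in the last step, was close in both sexes, with differences of -0.07, -0.25 and -0.16 (SE 0.09, 0.16 and 0.13) at 8, 21 and 78 weeks. Its values ran from 0.284 to 0.491 over all groups. Phgdh, the first enzyme of the route, differed by -0.30, 0.02 and 0.00 (SE 0.35, 0.40 and 0.41), and the wide errors came from its spread between rats, described below. Without both arrays at odds with their labels the 78-week difference of Phgdh was 0.29 (SE 0.32).

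Across the set, no tested member differed by sex after adjustment. In limma 0 of the 6 members tested had an adjusted p under 0.05 at 8 weeks, where 0.102% of all rows had, 0 of 6 at 21 weeks, where 0.0511% had, and 0 of 6 at 78 weeks, where 0% had. At an unadjusted p under 0.05 there were 0, 1 and 0 members, the 1 being Shmt1, against 5.74%, 15.9% and 5.65% of all rows. The methods' analysis of variance also gave 0, 1 and 0 at an unadjusted p under 0.05 and 0 after adjustment at each age. No member had female and male values that did not overlap, as 1.41%, 4.05% and 0.9% of all rows had. The mean was higher in males for 5, 4 and 4 of the 7 members, Mthfd2 among them, and for 51.1%, 63.2% and 50.8% of all rows. The median difference over the 7 members was -0.08, -0.08 and 0.00, and over all rows 0.00, -0.14 and 0.00. In a test of whether the sex difference changed between ages 0 of 6 members passed, at an adjusted or an unadjusted p under 0.05 (smallest limma adjusted p = 0.649), where 0.00266% and 10.5% of all features passed. With 5 rats per sex the exact permutation test cannot give a p below 0.00794.

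**Figure D3:**
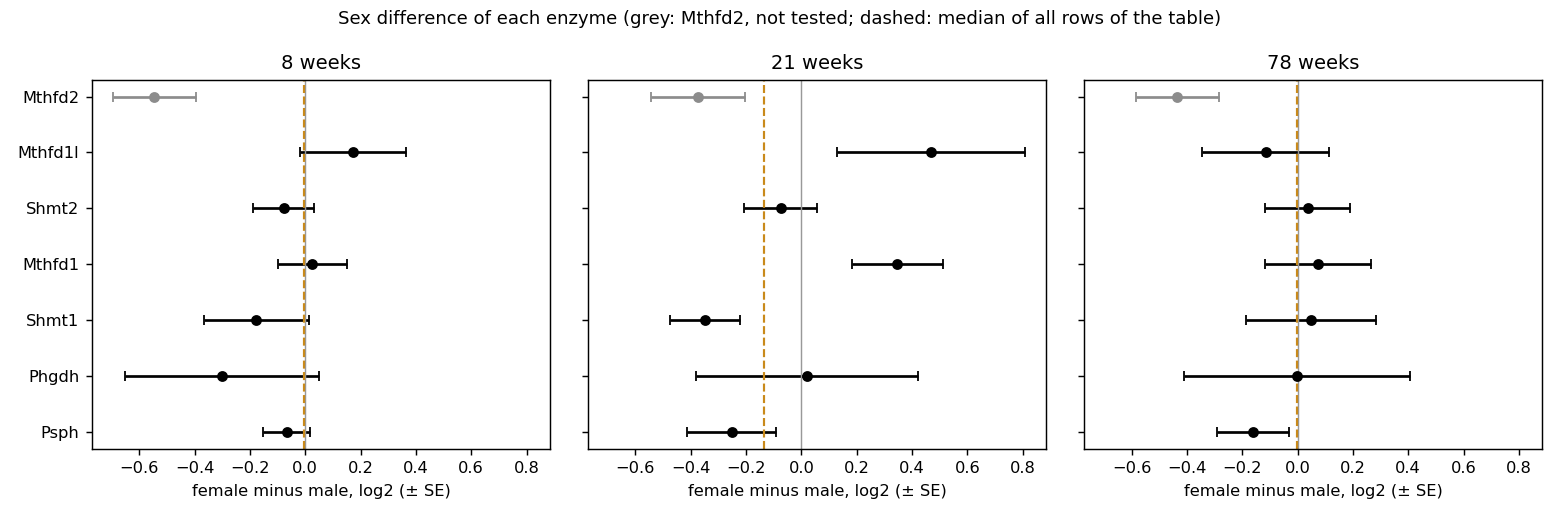
Female minus male difference in log2 normalized value with its SE (x axis) for the 7 enzymes at 8, 21 and 78 weeks, with Mthfd2 in grey because it was not tested and the median of all table rows as a dashed line. Mthfd2 lies left of 0 at each age, and at 21 weeks Mthfd1 and Shmt1 lie on opposite sides.

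The rest of the folate and serine network was read from 54 further genes in 6 lists, of which 50, 50 and 48 had a row at 8, 21 and 78 weeks. None passed the limma threshold by sex at any age. In the mitochondrial folate list the smallest unadjusted p-values belonged to Aldh1l2 (-0.54), Gcsh (-0.35) and Mtfmt (0.25) at 8, 21 and 78 weeks, and in the cytosolic list to Tyms (-0.30) at 8 and Gart (0.37) at 78 weeks. Among folate carriers they belonged to Slc46a1 (-0.34), Folr2 (-0.39) and Slc46a1 again (-0.71), and in the methionine cycle and transsulfuration list to Mtr (-0.31), Cbs (-0.76) and Mat2a (0.19). Cbs, which starts transsulfuration, had no overlap of the sexes in adult rats, with all females lower (exact permutation p = 0.00794, two-sided, and limma adjusted p = 0.191). The sexes did not overlap in 4.05% of all rows at that age, and Cbs was above background on 19 of 30 arrays. Among Atf4, a transcription factor of the amino acid response, and its targets they belonged to Atf4 itself (0.15), Ddit3 (-0.31) and Aldh18a1 (-0.26). In the serine transport and use list Sdsl led at each age, with 2 arrays or fewer above background in either sex. The medians of the 50, 50 and 48 genes were -0.01, -0.10 and -0.04.

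The spread of Phgdh between rats was far wider than that of the other members. Its normalized values were 3.59, 3.58, 3.19, 7.09 and 2.74 in 8-week females and 3.53, 4.07, 9.58, 5.59 and 2.95 in 8-week males. They were 2.58, 2.97, 6.21, 3.45 and 10.1 in adult females and 3.88, 2.75, 5.09, 7.77 and 3.70 in adult males. The highest heart of each of these groups stood well above the lowest, and both sexes covered the same range. At 78 weeks they were 2.60, 5.43, 6.70, 4.85 and 3.82 in females and 2.96, 3.72, 11.5, 2.59 and 5.38 in males, where the 11.5 belongs to the array labeled male replicate 3. The SD within groups was 0.67 log2, against a median of 0.21 over the 13331 features above background on all arrays, of which 0.518% had a larger one. The SDs of the other 6 members ran from 0.19 (Psph) to 0.45 (Mthfd1l).

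The hearts with high Phgdh were also high in Tkt and in Adipoq, an adipocyte marker. The genes to compare it with were chosen after its spread had been seen, so the correlations are a description. They were computed over the 30 arrays, 1 per rat, on deviations from the 6 group means, and the arrays share slides. Of 9785 named features above background on all arrays the 5 most like Phgdh were Tkt (Pearson's r = 0.97, Spearman's rho = 0.93), Dgat2 (0.96 and 0.93), Pex6 (0.95 and 0.94), Acly (0.94 and 0.89) and Acaca (0.94 and 0.91). Tkt is an enzyme of the pentose phosphate pathway, Acly and Acaca begin fatty acid synthesis and Dgat2 completes triglycerides. Leaving out the 2 arrays farthest from the median of Phgdh gave r of 0.92 to 0.96 for these 5.

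Of the 4 adipocyte markers listed 3 were measured. Adipoq, which encodes the fat cell hormone adiponectin, had r = 0.92 and rho = 0.90 with Phgdh over the 30 arrays, and r = 0.90 without the 2 farthest. Within single groups of 5 rats r ran from 0.84 to 0.98. Plin1, a coat protein of lipid droplets, was above background on 13 arrays and had r = 0.88, whereas Cidec, another lipid droplet protein, had r = -0.23. The summed scaled signal of the 3 markers ranged from 2.3 to 9.7 in young females and from 2.21 to 16.8 in young males, from 2.43 to 22.1 and 4.72 to 20.5 at 21 weeks, and from 3.98 to 17.7 and 4.15 to 31.7 at 78 weeks. The part of adipose tissue in the level of Phgdh was not tested.

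Among the listed genes of the network, Asns, the asparagine synthetase induced by Atf4, had r = 0.94 with Phgdh, the serine carrier Slc1a5 0.91 and the cytosolic Aldh1l1 0.89. Psph, the partner of Phgdh in the same route, had r = 0.51 and rho = 0.42, and r = 0.30 without the 2 arrays farthest from the median of Phgdh. Within single groups of 5 rats r between Phgdh and Psph ran from -0.49 in 21-week males to 0.93 in 8-week males. The other 5 members lay between -0.24 and 0.18. Psph had r of 0.50 with Shmt1 and -0.48 with Mthfd1, and Mthfd1 had 0.64 with both Mthfd1l and Shmt2. The female and the male replicate 4 at 78 weeks had the highest Mthfd1, Mthfd1l and Shmt2 of their groups. These correlations were not repeated without them.

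**Figure D4:**
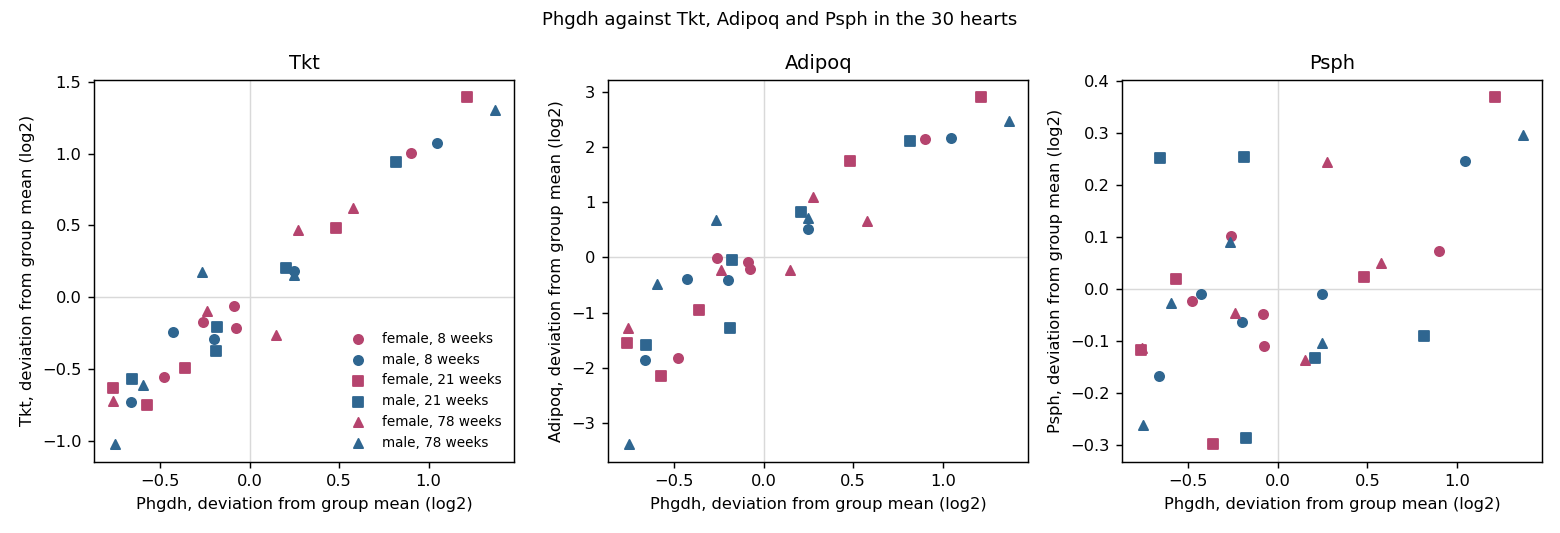
Deviation of each array from its group mean on the log2 scale for Phgdh (x axis) against Tkt, Adipoq and Psph (y axes), with color for sex and marker shape for age. Tkt and Adipoq rise with Phgdh over the 30 hearts (r of 0.97 and 0.92), and Psph scatters more (r of 0.51, or 0.30 without the 2 arrays farthest in Phgdh).

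For Mthfd2 the same measure gave weaker likeness. The 5 most like features of 9785 were Wdr91 (r = 0.71, rho = 0.74), Scn3b (0.62 and 0.55), Pmepa1 (0.61 and 0.62), Prss23 (0.59 and 0.66) and Rcan1 (0.59 and 0.64), over the same 30 arrays. Without the 2 arrays farthest from the median of Mthfd2 their r ran from 0.53 to 0.69. The other members had r of -0.04 to 0.28 with Mthfd2. The 0.28, of Mthfd1l, was 0.096 without the 2 farthest arrays.

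Differences between ages are given with a limit that comes before them. The study ran each age as a batch of its own, so age and batch cannot be told apart, and only 1 of the 8 slides held arrays of more than 1 age. The values for this comparison were rebuilt from the scanner files as the background-subtracted signal, scaled within each array by its upper quartile. Over all 37642 features the median moved by 0.31 from 8 to 21 weeks, by 0.13 from 8 to 78 weeks and by -0.19 from 21 to 78 weeks, and each member's value stands against that shift.

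Shmt1 had the largest age difference of the set. Its scaled signal had a lowest, median and highest value of 0.176, 0.277 and 0.362 over the 10 hearts at 8 weeks, 0.320, 0.400 and 0.541 at 21 weeks and 0.180, 0.323 and 0.436 at 78 weeks. It rose by 0.63 log2 (SE 0.13) from 8 to 21 weeks, 1.55-fold (limma adjusted p = 3.0e-04), beyond the shift of all features. The highest 21-week values (0.500, 0.468 and 0.541) came from the weakest arrays, male replicates 2, 4 and 5. In females alone the mean log2 scaled signal of this row was -1.98 at 8 and -1.44 at 21 weeks. The part of array brightness in the rise was not tested. The second Shmt1 probe had mean log2 scaled signals of -3.30, -2.74 and -2.80 in females and of -3.32, -2.91 and -3.30 in males at the 3 ages in order. It was thus higher at 21 than at 8 weeks in both sexes, and between 21 and 78 weeks it was lower mainly in males. From 21 to 78 weeks the first row, described above, fell by 0.37 (limma adjusted p = 0.0264). Without female replicate 4 or male replicate 4 at 78 weeks that difference was -0.33 or -0.26 and no longer passed (limma adjusted p = 0.0556 and adjusted p = 0.0631).

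Shmt2 and Mthfd1, both clearly above background on all arrays, were lowest in old hearts. Shmt2 had a median of 5.02 at 8 weeks (4.08 to 5.97), 5.94 at 21 weeks (5.23 to 7.23) and 4.28 at 78 weeks (3.93 to 6.51). It fell by 0.41 from 21 to 78 weeks (SE 0.09, limma adjusted p = 6.9e-04). Its difference of 0.25 from 8 to 21 weeks also passed (limma adjusted p = 0.0201), but it lay under the shift of all features, was 0.13 after quantile normalization (limma adjusted p = 0.254) and turned to -0.13 with normexp. Mthfd1 had medians of 3.90, 4.35 and 3.01 and fell by 0.39 from 21 to 78 weeks (SE 0.11, limma adjusted p = 0.00788).

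Mthfd2 and Mthfd1l had their highest medians in old hearts, with no call. For Mthfd2 the medians were 0.252, 0.238 and 0.258, and 78 weeks stood 0.29 above 8 weeks (SE 0.10, limma adjusted p = 0.0719). That value passed without female replicate 1 at 8 weeks (0.34, adjusted p = 0.0349), without male replicate 3 at 78 weeks (0.33, adjusted p = 0.0493) or without male replicate 5 at 78 weeks (0.33, adjusted p = 0.0409), by limma in each case. With each rat left out in turn the Mthfd2 difference ran from 0.23 to 0.34. For Mthfd1l the medians were 0.233, 0.230 and 0.263, and 78 stood 0.45 above 21 weeks (SE 0.18, limma adjusted p = 0.0569). It passed at 0.46 to 0.54 without any 1 of male replicate 5 at 8 weeks, male replicates 1, 3 and 4 at 21 weeks and female replicate 5 at 78 weeks. With each rat left out in turn the Mthfd1l difference ran from 0.30 to 0.54. The lowest 21-week value, 0.0663, was that of male replicate 5, and only 3 of 5 male arrays of that age were well above background. Phgdh and Psph differed between ages by 0.05 to 0.18 in each comparison and did not pass.

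In all, 2 of 7 members passed from 8 to 21 weeks, both higher, where 58.3% of all features passed, 43.8% higher and 14.5% lower. From 8 to 78 weeks 0 of 7 passed in limma, where 10.7% of all features did (5.84% higher and 4.84% lower), with the slide as a block or without it, and 1 had an unadjusted p under 0.05, which was Mthfd2. From 21 to 78 weeks 3 of 7 passed, all lower, where 32.3% of all features passed, 13.3% higher and 19% lower. From 8 to 21 weeks the share of members called was thus below that of features at large. With normexp and its offset of 50 no member passed in any age comparison. On the 1 slide that held arrays of both 8 and 78 weeks, 2 rats per age, the later age differed by 0.45 for Mthfd2, 0.70 for Mthfd1l, 0.74 for Shmt1, -0.15 for Shmt2 and -0.28 for Mthfd1. The signs were those of the comparison over 30 arrays.

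**Figure D5:**
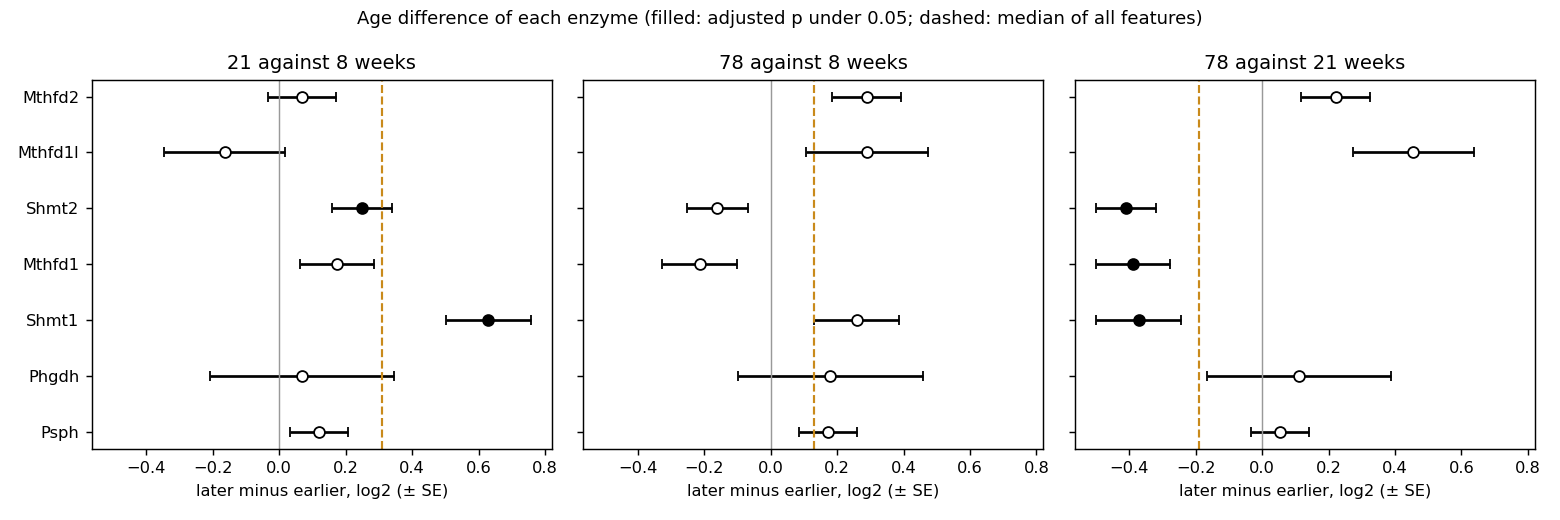
Later minus earlier difference in log2 scaled signal with its SE (x axis) for the 7 enzymes in the 3 age comparisons, filled where the limma adjusted p was under 0.05, with the median of all 37642 features as a dashed line. From 21 to 78 weeks Shmt2, Mthfd1 and Shmt1 lie left of the dashed line and Mthfd2 and Mthfd1l right of it.

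In the wider network Aldh1l2 was detected at 1 age only. It encodes the mitochondrial enzyme that turns formyl-folate into carbon dioxide. The row used was well above background on all 10 arrays at 8 weeks and on 0 of 10 at 21 and at 78 weeks. The other row of its name was not above background on any of the 30 arrays. For a fold, the dim arrays were set no lower than the lowest signal that counts as above background. The row used was then 2.91-fold higher at 8 than at 21 weeks and 3.17-fold higher at 8 than at 78 weeks. Spots of other probes failed that flag at higher signals, so these folds are not lower bounds. The measured differences had a limma adjusted p = 1.3e-06 and adjusted p = 1.9e-06. Of 9 measured genes in the mitochondrial list 3 rose and 1 fell from 8 to 21 weeks, where 43.8% and 14.5% of all features did. From 8 to 78 weeks 1 rose and 1 fell, where 5.84% and 4.84% of all features did. From 21 to 78 weeks 1 rose and 3 fell, where 13.3% and 19% of all features did. These counts include Gldc, higher at 21 than at 8 and at 78 weeks but not well above background on any of the 30 arrays, so its calls compare background. Gcsh, a carrier protein of the glycine cleavage system, rose by 0.77 from 8 to 21 weeks and fell by 0.39 from 21 to 78 weeks (limma adjusted p = 1.3e-08 and adjusted p = 1.2e-04).

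Of the 8 cytosolic genes 3 rose and 1 fell from 8 to 21 weeks, 1 rose and 1 fell from 8 to 78 weeks, and 1 rose and 3 fell from 21 to 78 weeks. Of all features 43.8%, 5.84% and 13.3% rose and 14.5%, 4.84% and 19% fell in these comparisons. Tyms, the thymidylate synthase needed for DNA synthesis, fell by 0.57 from 8 to 21 weeks and by 1.04 from 8 to 78 weeks (limma adjusted p = 4.2e-04 and adjusted p = 7.8e-07). From 8 to 78 weeks all 5 measured markers of dividing cells fell, Cdk1 by 1.27, where 4.84% of all features fell. The part of dividing cells in the fall of Tyms was not tested.

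In the folate uptake and retention list 4 of 6 genes were called higher at 21 than at 8 weeks, where 43.8% of all features were, and 1 of the 4, Folr1, was above background on only 5 of 30 arrays. Folr2, a folate receptor of macrophages, rose by 0.55 and Ggh, which trims the glutamate tail of folate, by 0.45, and both stood 0.38 and 0.35 above 8 weeks at 78 weeks. Of 5 leukocyte markers 1 was also called higher in both comparisons, the macrophage marker Cd68. Its difference was 0.29 from 8 to 21 weeks, under the 0.31 shift of all features, and 0.38 from 8 to 78 weeks, where that shift was 0.13. The part of macrophages in Folr2 was not tested. In the methionine cycle and transsulfuration list 7 of 9 genes rose and 2 fell from 8 to 21 weeks, where 58.3% of all features passed. From 8 to 78 weeks 1 rose, where 5.84% of all features did. Among the 7, Mat1a was above background on only 5 of 30 arrays. Bhmt, a remethylating enzyme, fell by 0.97 from 8 to 21 weeks and rose by 1.25 from 21 to 78 weeks.

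In the list of serine transport and use, 1 of 8 genes rose, Sdsl, which was above background on only 3 of 30 arrays, and 3 fell from 8 to 21 weeks, among them the mitochondrial sideroflexins Sfxn3 (-0.34) and Sfxn2 (-0.36). Of all features 43.8% rose and 14.5% fell between these ages. Of Atf4 and its targets 10 were measured. From 8 to 78 weeks 2 rose, Gdf15, a secreted stress hormone, by 2.11 and Trib3, a pseudokinase, by 0.48, and none fell (limma adjusted p = 3.3e-04 and adjusted p = 0.011). Of all features 5.84% rose and 4.84% fell between these ages. Gdf15 was above background on 2 of 5 female and 4 of 5 male arrays at 8 weeks and on all 10 at 78 weeks. Atf4 itself rose by 0.25 from 8 to 21 weeks (limma adjusted p = 0.012), under the shift of all features. Of all 50 measured network genes 21 rose and 8 fell from 8 to 21 weeks, 8 rose and 3 fell from 8 to 78 weeks, and 10 rose and 13 fell from 21 to 78 weeks. Of all features 43.8%, 5.84% and 13.3% rose and 14.5%, 4.84% and 19% fell in these comparisons. The median differences of the 50 genes were 0.13, 0.03 and -0.13, beside 0.31, 0.13 and -0.19 over all features.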

How the data were processed

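The authors scanned Cy3 arrays and extracted spot intensities with Agilent Feature Extraction, averaged the probes of a gene, removed genes they took as not expressed and scaled each array to its 75th percentile, and they deposited the normalized intensity values as 1 table per age beside the scanner files. Rows were matched to probes by value (within 0.002 log2, 99.2, 99.2 and 99.1% of rows at 8, 21 and 78 weeks). The males of the 21-week table name only their group, so values for leaving out rats, slides and ages were rebuilt from the background-subtracted deposited intensity over the 75th percentile of 41012 probes, with probes of a row averaged into 37642 features. Sex was tested within each age on log2 values with limma 3.58.1 (R 4.3.3) over all rows, two-sided, with Benjamini-Hochberg adjustment at 0.05, and with exact permutation tests of single members. Age used 6 groups with the slide as a random block (correlation -0.05). Where a name had several rows, the row above background on most arrays was used. Same-numbered females and males share a slide, and their deviations correlated at 0.13 to 0.29 at 78 weeks. At 21 weeks the correlations were 0.54, 0.36, 0.02, -0.15 and 0.24 for replicates 1 to 5, and at 8 weeks they ran from -0.19 to 0.21. The main sex tests and the permutations were unpaired, and a replicate block was run as an alternative. The members and lists were chosen with earlier results of these data known. All members, up to 4 passing genes per list and comparison or otherwise the 1 with the smallest p, and the 5 features most like Mthfd2 were eligible to be named. The models were tested on simulated data. That the rats are separate animals rests on the labels, and the number of arrays limits the precision. Sequences are from the array files and gene positions from RefSeq (GRCr8). Some values of the cytosolic folate list are not reported here.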

Additional observations from a re-analysis of the deposited data

Results flagged for a closer look

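Of 48 sets of 5 rats (8 rows in 6 groups) 4 held a member value far from the other 4 rats, measured as the gap to the nearest rat over the whole range on the log2 scale, where chance flags about 1 set in 20. Shmt2 in 78-week males had 1 heart at 3.48 with the next at 2.29 (a gap of 0.882 of the range). Mthfd1l in 78-week males had 1 heart at 0.233 with the next at 0.152 (0.768), and in 8-week males 1 heart at 0.0823 with the next at 0.127 (0.738). Phgdh in 8-week females had 1 heart at 7.09 with the next at 3.59 (0.714). In 78-week males the high heart was replicate 4 for both Shmt2 and Mthfd1l, and it was also the highest male for Mthfd1 and the lowest for Shmt1. Female replicate 4 of that age, on the same slide, was likewise the highest female for Shmt2 (2.92), Mthfd1l (0.238) and Mthfd1 (2.78) and the lowest for Shmt1 (0.145). The part of the slide in these values was not tested.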

How the results depend on the processing

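The count of 0 members called by sex held at each age, and for sex by age, under all alternatives, including the replicate block (0 at each age) and each rat left out (0 to 0). The count from 8 to 21 weeks was 2 to 2 with 1 rat left out, 0 with normexp (offset 50) and 1 with quantile normalization. From 8 to 78 weeks it was 0 to 1 with 1 rat left out (1 without female replicate 1 at 8 weeks or male replicate 3, 4 or 5 at 78 weeks) and 2 with the raw median signal. From 21 to 78 weeks it was 2 to 4 with 1 rat left out and 0 with normexp. The replicate block left the age counts at 2, 0 and 3. Some differences changed sign, among them 0.47 for Mthfd1l by sex at 21 weeks and the called 0.25 for Shmt2 from 8 to 21 weeks, and the cause was not tested. With normexp these were, by sex, Mthfd1l (-0.16) and Shmt2 (0.47) at 21 weeks and Mthfd1l (0.076), Shmt2 (-0.17) and Mthfd1 (-0.13) at 78 weeks, and by age, Mthfd1l (0.24), Shmt2 (-0.13), Mthfd1 (-0.11) and Phgdh (-0.25) from 8 to 21 weeks and Phgdh from 8 to 78 (-0.26) and 21 to 78 weeks (-0.014). With the raw median signal they were Shmt2 by sex at 21 weeks (0.16), Mthfd1l (0.028) and Phgdh (0.0094) by sex at 78 weeks, and Mthfd1l (0.086) and Phgdh (-0.021) from 8 to 21 weeks. Quantile normalization turned Phgdh from 8 to 21 weeks (-0.043) and Psph from 21 to 78 weeks (-0.017). Phgdh by sex at 78 weeks was 0.013 on rebuilt values, with the replicate block and with the slide as block, and 0.29 without both arrays at odds with their labels. Without them Phgdh was also -0.049 from 8 to 78 and -0.11 from 21 to 78 weeks, and Psph -0.019 from 21 to 78 weeks. The second Shmt1 probe, chosen after seeing the data, gave 0.0045 at 8 and 0.16 at 21 weeks. With 1 rat left out, sex differences ran at 8 weeks from -0.13 to 0.0073 for Shmt2, from -0.030 to 0.11 for Mthfd1 and from -0.093 to 0.010 for Psph, at 21 weeks from -0.27 to 0.24 for Phgdh, and at 78 weeks from -0.28 to 0.048 for Mthfd1l, -0.012 to 0.19 for Shmt2, -0.065 to 0.22 for Mthfd1, -0.14 to 0.16 for Shmt1 and -0.18 to 0.36 for Phgdh. Phgdh ran from -0.068 to 0.21, -0.0043 to 0.32 and -0.071 to 0.25 in the 3 age comparisons. The other sex and age values of the tested members kept their sign in all alternatives run. Low signal over background limits Mthfd2, Mthfd1l and Shmt1.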
